A study of Arabidopsis thaliana with 19 samples.

Results

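Dormant seeds of NILDOG1 were compared with dormant seeds of NILDOG2 across all genes of the ATH1 GeneChip, a microarray whose short probes, several to a gene, read the level of each transcript. The members were the arrays titled NILDOG1 D Imb and NILDOG2 D Imb, which made 8 of the 19 arrays analysed here. There were 5 arrays of NILDOG1 and 3 of NILDOG2, and no array of the parent line took part in the test. Both are near isogenic lines in which a stretch of the Cvi genome sits in the Landsberg erecta (Ler) background. The study draws the stretch of NILDOG1 on the lower arm of chromosome 5 and that of NILDOG2 at the top of chromosome 1, and it gives NILDOG1 as more dormant and NILDOG2 as less dormant than Ler. All seeds of both lines were freshly harvested, whole and imbibed in water for 24 h. The treatment label and the titles name imbibed seeds, whereas the extraction label speaks of dry seeds, and the imbibed state was used here. Each replicate was a bulk of seeds from several plants grown in a block design. The labels mention 3 replicates, so the origin of NILDOG1 replicates 4 and 5 is not given, and p-values measure the spread between these arrays only.

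Seed dormancy is the state in which a viable seed does not germinate although water, light and temperature would allow it. Abscisic acid (ABA) maintains the dormant state, and gibberellins (GAs) promote germination, partly by switching on enzymes that loosen the walls of the embryo and of the endosperm around it. DELAY OF GERMINATION 1 (DOG1) encodes a protein whose amount in the seed sets the depth of dormancy, and it acts through the AHG1 and AHG3 phosphatases, which also restrain ABA signalling.

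The values were the log2 signals deposited after RMA normalization. Their median in each array ran from 4.72 to 4.80 in NILDOG1 and from 4.75 to 4.80 in NILDOG2, and the lower quartile lay between 3.14 and 3.24 over the 8 arrays. A level near that quartile may be background, and detection was not checked, so differences that rest on such levels are not exact in size. Pearson's r across genes (which are no independent replicates) was 0.983 to 0.992 between NILDOG1 arrays, 0.992 to 0.993 between NILDOG2 arrays and 0.972 to 0.987 across the lines. The seed label was borne out by its markers, since the 9 storage protein genes averaged 8.47 to 14.4 in NILDOG1 and 8.87 to 14.4 in NILDOG2. The 4 flower organ identity genes stayed between 3.01 and 3.37 in NILDOG1 and between 2.91 and 3.23 in NILDOG2, and the 5 leaf photosynthesis genes measured between 3.52 and 4.75 in NILDOG1 and between 3.25 and 4.63 in NILDOG2. In whole seeds, fewer cells of a type and less RNA per cell cannot be told apart.

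The largest rises in NILDOG1 were those of LUL1, GBF2 and FLC, and DOG1 was higher as well. Of the gene groups described below, 7 of 18 cell wall loosening genes, 4 of 14 GA synthesis genes, 6 of 11 tubulins and 10 of 19 indole glucosinolate genes were lower in NILDOG1, and 4 of 17 flavonoid genes were higher. Without NILDOG2 replicate 2 these counts were 2, 2, 3, 0 and 0. The cell wall and GA lists were chosen with earlier results of these data known. The tubulin, indole glucosinolate and flavonoid lists were chosen after the values had been seen. A gene was called where the limma p-value, adjusted by Benjamini-Hochberg over all 21313 genes, was under 0.05. Under this rule 781 genes (3.66%) were called, 326 (1.53%) higher and 455 (2.13%) lower in NILDOG1. With NILDOG1 replicates 1 to 3 only, the larger part turned, with 1095 higher and 892 lower. With the replicate number as a block, 1019 were higher and 858 lower. NILDOG1 replicates 4 and 5 have no NILDOG2 array of their number. The block fit therefore takes its differences from replicates 1 to 3 and is no separate check. The NILDOG1 and NILDOG2 values did not overlap in 767 of the 781, whereas 11.3% of all genes had no overlap, 5.87% with NILDOG1 above and 5.4% with NILDOG1 below. At an unadjusted p under 0.05, 8.48% of all genes were higher and 7.81% lower in NILDOG1. The median size of the called differences was 0.88 on the log2 scale, with 291 genes over 1 and 45 over 2, against a median difference of 0.02 over all genes. At an adjusted p under 1e-04, 17 genes (0.0798%) were called, 10 higher (0.0469%) and 7 lower (0.0328%).

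The count depended on the arrays used. It was 1987 with NILDOG1 replicates 1 to 3 only and 338 with NILDOG1 replicates 4 and 5 only, and it fell to 238 without NILDOG2 replicate 2. The count was 517 without NILDOG1 replicate 1, 455 without NILDOG2 replicate 1 and 377 without NILDOG2 replicate 3. Each of the 781 genes kept its direction in both sets of NILDOG1 replicates, and 219 of them remained called whichever array was left out. NILDOG1 replicate 4 was the array of its line closest to NILDOG2 at 284 (36.4%) of the called genes, and NILDOG1 replicate 3 at 53 (6.79%).

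The 3 largest rises had little spread in NILDOG1. LUL1 (AT5G03200), which encodes a LOG2-like ubiquitin ligase, had 8.06, 8.28, 8.46, 8.27 and 8.05 in NILDOG1, against 3.71, 3.62 and 4.7 in NILDOG2. All NILDOG1 arrays were far above all NILDOG2 arrays, a log2 difference of 4.21 ± 0.22 (SE, limma adjusted p = 1.6e-06). GBF2 (AT4G01120), a bZIP transcription factor that binds G-box elements, had 8.40, 8.63, 8.72, 8.49 and 8.31 in NILDOG1, against 4.94, 4.87 and 4.54 in NILDOG2. Its difference of 3.73 ± 0.14 had the lowest adjusted p of all genes (1.44e-07). FLC (AT5G10140), a MADS-box repressor of flowering, had 8.44, 8.85, 8.70, 8.16 and 8.20 in NILDOG1, against 5.10, 4.78 and 5.03 in NILDOG2. The groups did not overlap, with a difference of 3.50 ± 0.17 (adjusted p = 1.04e-06).

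In the families of these 3 genes, no other member was called. Of the 5 G-box factors, GBF2 was the only member called, and GBF3 had a difference of 0.44 (adjusted p = 0.0603). LUL1 was the only member called of the 4 measured genes of the LOG2-like ligases, where LUL2 had 0.51 (adjusted p = 0.0518). Among 9 measured genes of the FLC clade and of flowering time, FLC alone was called, while its relatives MAF5 (0.79, adjusted p = 0.169), MAF4 (0.55) and MAF1 (0.41) were not.

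The other genes among the 12 largest rises fell into those with tight values and those with wide ones. RPL27 (AT5G40950), a protein of the large ribosomal subunit, ran from 9.06 to 9.82 in NILDOG1, against 6.25 to 6.82 in NILDOG2, a difference of 2.95 ± 0.18. TRX2 (AT5G39950), a thioredoxin of the h type that reduces disulphide bonds, ran from 8.84 to 9.35 in NILDOG1, against 6.55 to 6.79 in NILDOG2 (2.46 ± 0.14). The genes AT5G43450 (3.35 ± 0.22), AT4G20480 (2.54 ± 0.15), AT1G02750 (2.43 ± 0.26) and AT1G12790 (2.24 ± 0.16) have no symbol in the gene table used here, and their groups did not overlap either. ATHSP22.0 (AT4G10250), a small heat shock protein, was of the other kind, with 8.68, 8.35, 10.04, 8.63 and 5.77 in NILDOG1, against 5.60, 4.68 and 5.70 in NILDOG2. Its lowest NILDOG1 value lay just above the highest NILDOG2 value, and its difference of 2.97 ± 0.69 (adjusted p = 0.0369) was no longer called in 6 of the 8 fits that left out an array, the highest adjusted p being 0.211 without NILDOG2 replicate 2.

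**Figure D1:**
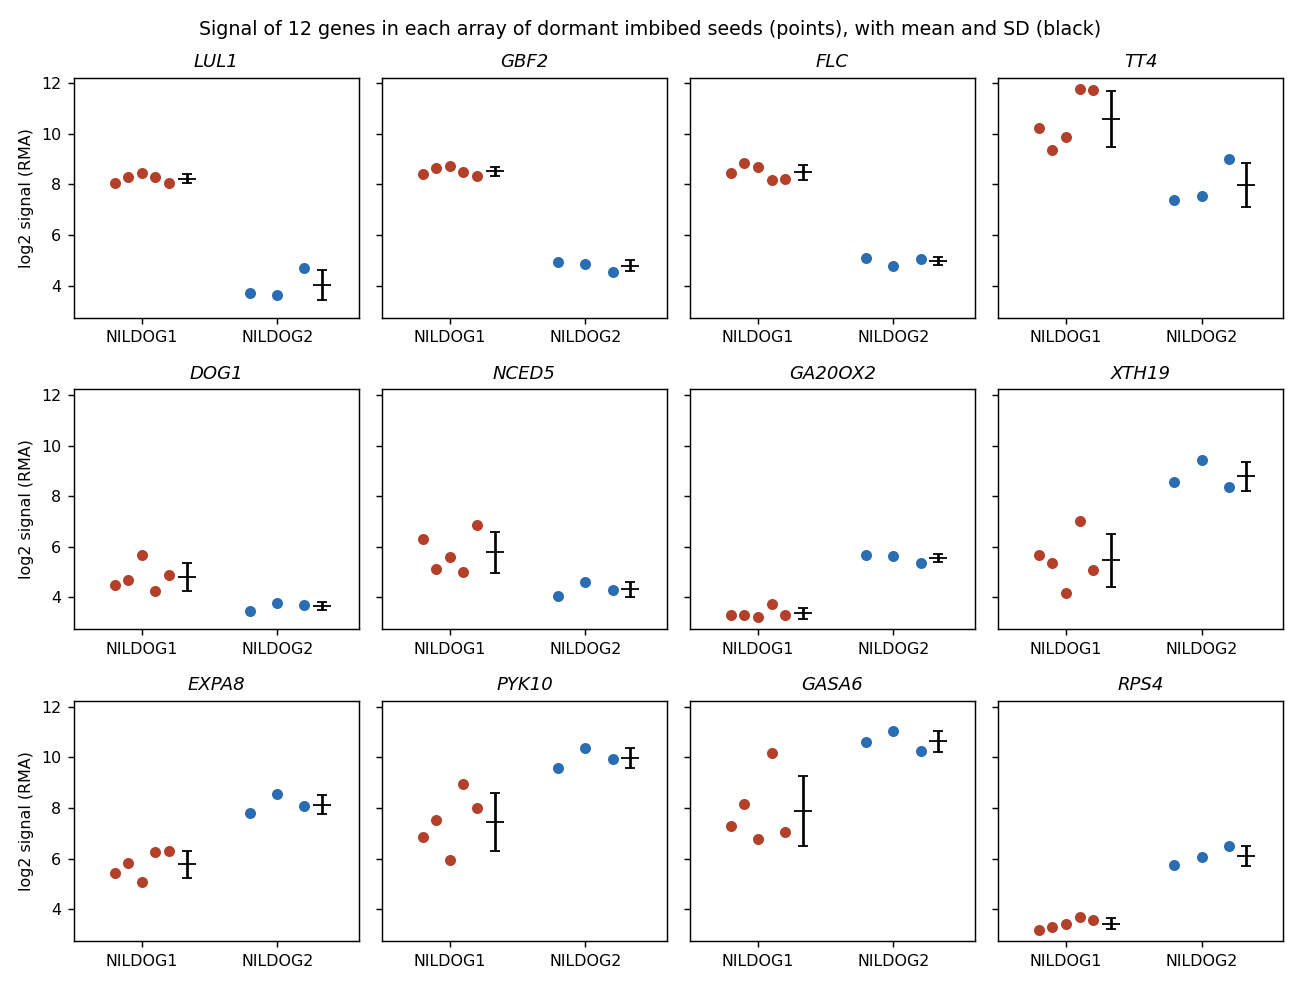
Log2 RMA signal (vertical axes) of 12 genes in each array of NILDOG1 (red, left, n = 5) and NILDOG2 (blue, right, n = 3), with the mean and SD in black. LUL1 (4.21), GBF2 (3.73) and FLC (3.50) have the largest positive log2 differences and vary little between the NILDOG1 arrays, whereas TT4, XTH19, PYK10 and GASA6 vary widely between the NILDOG1 arrays.

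The largest falls began with 2 genes that have no symbol in the table. AT1G03710 had 3.3, 2.72, 3.00, 3.43 and 3.81 in NILDOG1, against 6.95, 7.38 and 7.03 in NILDOG2. Its NILDOG1 values were near the lower quartile of the arrays, so the difference of -3.87 ± 0.21 (adjusted p = 2.32e-06) is not exact in size. AT5G38780 had 5.45, 5.54, 5.93, 5.94 and 5.35 in NILDOG1, against 9.53, 9.21 and 9.48 in NILDOG2, a difference of -3.76 ± 0.16 (adjusted p = 4.29e-07). Both genes separated the lines without overlap. RPS4 (AT5G45250), an immune receptor that recognises bacterial effectors, ran from 3.19 to 3.71 in NILDOG1, close to the lower quartile, against 5.74 to 6.51 in NILDOG2 (-2.67 ± 0.18, adjusted p = 9.13e-06). AT5G03345 differed by -2.54 ± 0.27.

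Most of the remaining large falls had a wide spread in NILDOG1. GASA6 (AT1G74670), a small GA-stimulated peptide that promotes germination, had 7.28, 8.15, 6.79, 10.18 and 7.05 in NILDOG1, against 10.59, 11.05 and 10.24 in NILDOG2. NILDOG1 replicate 4 came close to NILDOG2 but stayed below it, and the difference of -2.74 ± 0.61 (adjusted p = 0.029) lost its call in 6 of the 8 fits without an array, up to 0.17 without NILDOG2 replicate 2. AT1G62500 ran from 3.17 to 5.03 in NILDOG1, against 6.57 to 7.10 in NILDOG2 (-2.97 ± 0.37). ELP (AT1G12090), an extensin-like protein, ran from 4.7 to 7.06 in NILDOG1, against 7.88 to 8.17 in NILDOG2, and differed by -2.56 ± 0.41. ATLP-1 (AT1G18250) differed by -2.60 ± 0.44, with an adjusted p of 0.0554 without NILDOG2 replicate 2, and CYP71B2 (AT1G13080), a cytochrome P450, by -2.50 ± 0.39. In ELP, ATLP-1, CYP71B2 and GASA6 the highest NILDOG1 array was replicate 4.

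Called genes were dense at the top of chromosome 1 and in the lower arm of chromosome 5, where the introgressed stretches are drawn, and in a window at the top of chromosome 5, where none is drawn. Chromosome 5 held 226 of the 781 (28.9%) but 22.9% of the genes tested, and chromosome 1 held 230 (29.4%) but 25.9% of the genes tested. Of the 17 genes called at an adjusted p under 1e-04, 10 were on chromosome 5, 5 on chromosome 1 and 2 on chromosome 4. Along the gene order, the 209 windows of 100 neighbouring genes held a median of 3 called genes, and 12 windows held 10 or more. On chromosome 5, 6 of these windows followed each other from AT5G39850 to AT5G47340, with 11 to 15 called genes in each. The window with AT5G44790 to AT5G46080, which includes RPS4 and DOG1, held 15, of which 4 were higher and 11 lower in NILDOG1. A separate window near the top of the same chromosome, AT5G02220 to AT5G03380, held 15 as well, with LUL1, AT5G03345 and the clock gene PRR7 among them. On chromosome 1 the 5 dense windows lay between AT1G01010 and AT1G12900. On chromosome 4 no window reached 10, but the adjoining windows from AT4G17880 to AT4G20360 held 8 and 9. The first window of chromosome 4, with GBF2 and PYL7, held 8, as did other windows of chromosomes 3 and 4.

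The called genes were also placed by the mean of NILDOG3, another line whose Cvi stretch is drawn elsewhere. In the dense windows of chromosome 5, the NILDOG3 mean was nearer to NILDOG2 at 68 of the 93 called genes. In the dense windows of chromosome 1, it was nearer to NILDOG1 at 51 of 53. At the 635 called genes outside the dense windows, NILDOG3 was nearer to NILDOG1 at 553 (87.1%). NILDOG6, a line with a Kas-2 stretch, was nearer to NILDOG1 at 438 of them (69.0%). Being nearer to the NILDOG1 mean does not show that a line shares the difference. Over all genes tested, NILDOG3 lay nearer to NILDOG1 at 60.8% and NILDOG6 at 54.4%. These counts use the NILDOG1 and NILDOG2 means that also chose the genes, so they are a description. They cannot decide whether a difference is particular to NILDOG1. LUL1 averaged 4.03 in NILDOG3, close to NILDOG2, GBF2 averaged 8.42, close to NILDOG1, and FLC averaged 6.59, between the lines. In NILDOG6, LUL1 averaged 3.82, close to NILDOG2, while GBF2 (8.21) and FLC (8.11) were close to NILDOG1. AT4G20480, on chromosome 4, averaged 6.84 in NILDOG3 and 6.81 in NILDOG6, both closer to NILDOG2 (6.53) than to NILDOG1 (9.06). For genes inside a Cvi stretch, a variant under the probes and a difference in transcript level cannot be told apart.

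**Figure D2:**
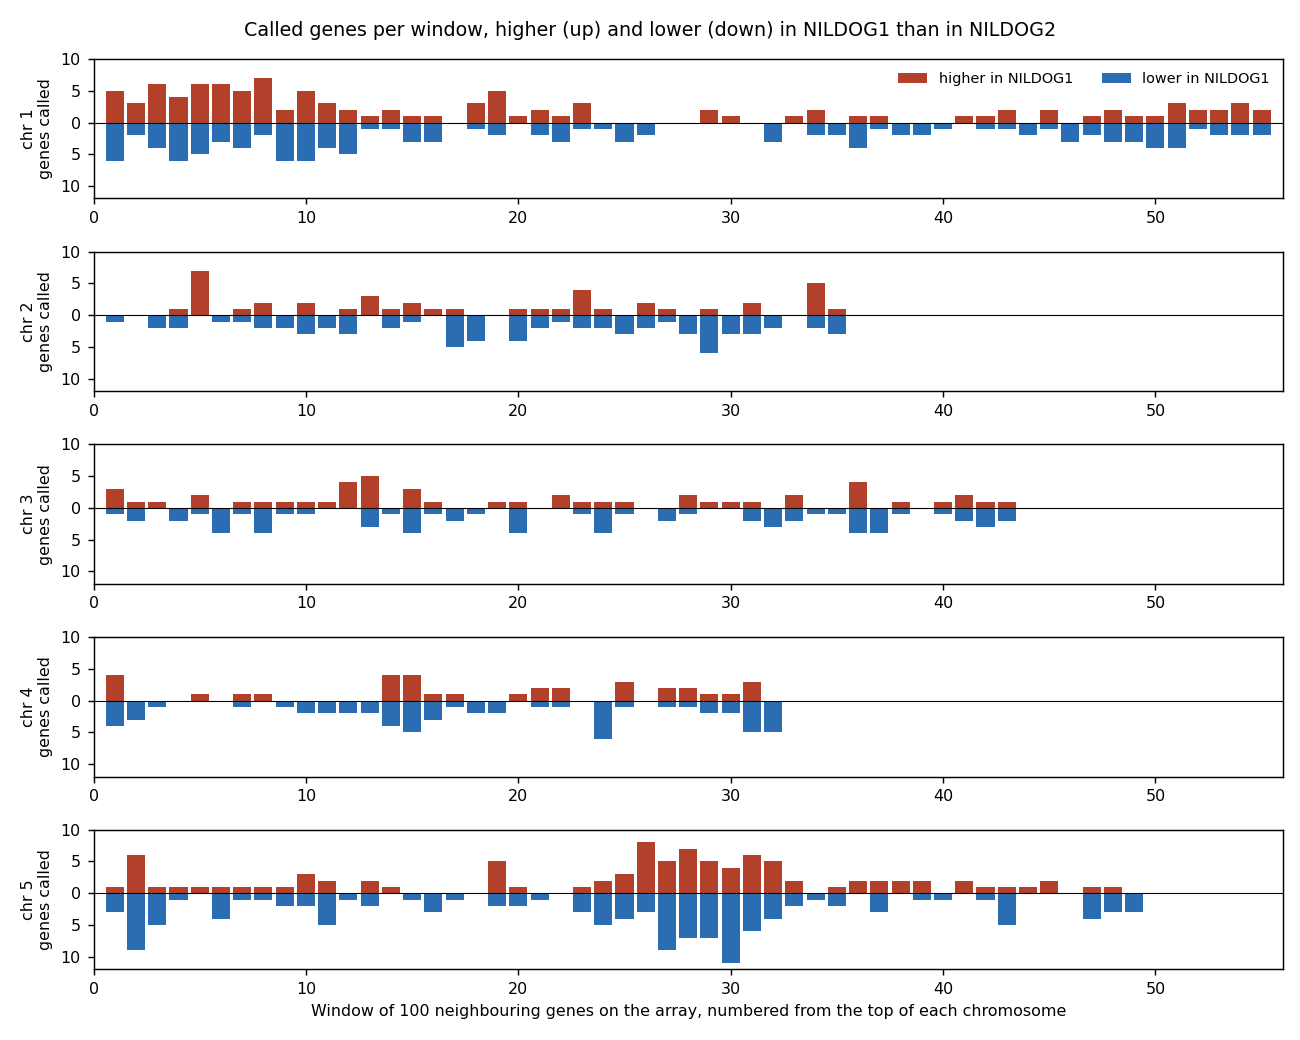
Number of called genes (vertical axis) in each window of 100 neighbouring genes along the 5 chromosomes (horizontal axis, window number from the top), with genes higher in NILDOG1 upwards in red and genes lower in NILDOG1 downwards in blue. The last window of each chromosome holds fewer genes. Runs of windows with many calls in both directions stand at the top of chromosome 1 and in the lower arm of chromosome 5, beside a single dense window near the top of chromosome 5.

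DOG1 (AT5G45830) was higher in the more dormant line. It had 4.48, 4.67, 5.69, 4.26 and 4.89 in NILDOG1, against 3.48, 3.80 and 3.69 in NILDOG2. All 5 NILDOG1 arrays were above the 3 NILDOG2 arrays, with replicate 3 the highest, and the difference was 1.14 ± 0.26 (adjusted p = 0.0328), a 2.21-fold higher signal. The call did not hold without NILDOG1 replicate 2 (adjusted p = 0.0572), nor without NILDOG2 replicate 1 (0.129), 2 (0.119) or 3 (0.112), while the difference stayed between 0.92 and 1.28. The NILDOG2 values were close to the lower quartile, and DOG1 lies in a dense window of chromosome 5. DOGL4 (AT4G18650), a DOG1-like gene, differed by 0.67 without overlap (adjusted p = 0.0558).

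Of 20 measured regulators of seed maturation and dormancy, 1 was called, where 3.66% of all genes were. This was SOM (SOMNUS, AT1G03790), a zinc finger protein that represses light-dependent germination, with 10.05, 9.41, 10.22, 9.79 and 9.56 in NILDOG1, against 9.10, 9.00 and 9.07 in NILDOG2. It was higher in every NILDOG1 array, by 0.75 ± 0.18 (adjusted p = 0.039), but the call was lost in 6 of the 8 fits without an array, up to an adjusted p of 0.189 without NILDOG2 replicate 2. The median difference of the 20 genes was -0.01.

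The study chose its D-up genes as those higher in dormant than in after-ripened seeds of every line, these arrays included, so the list is not independent evidence of a direction. Its 46 members had a median difference of 0.30, and 42 were above 0, where 11616 of all 21313 genes were. Only 3 members were called, all higher in NILDOG1, where 1.53% of all genes were called higher. AT3G14880, which the study describes as related to transcription factors, had 9.91, 9.80, 9.79, 9.67 and 9.93 in NILDOG1, against 8.75, 8.89 and 9.20 in NILDOG2, and its difference of 0.88 ± 0.13 (adjusted p = 0.00376) kept its call whichever array was left out. AT1G13340 (1.04 ± 0.24, adjusted p = 0.0335) and GCL1 (0.59 ± 0.15, adjusted p = 0.0498) lost theirs in 5 and 7 of the 8 such fits, up to 0.202 and 0.226 without NILDOG2 replicate 2. NILDOG1 replicate 3 was the highest array of its line for 27 of the 46 genes and replicate 5 the lowest for 25. With NILDOG1 replicates 1 to 3 only, 17 members were called higher, and with replicates 4 and 5 only, 0 were, where the median was 0.20. The lowest member, CYP81F2, differed by -0.73 (adjusted p = 0.0892).

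Genes of ABA synthesis moved singly. NCED5 (AT1G30100), which encodes a dioxygenase of the rate-limiting cleavage step, had 6.3, 5.12, 5.61, 4.99 and 6.86 in NILDOG1, against 4.04, 4.62 and 4.30 in NILDOG2. It was higher in all NILDOG1 arrays, by 1.46 ± 0.36, but the adjusted p of 0.0498 was just under the threshold and rose in 5 of the 8 fits without an array, up to 0.176 without NILDOG2 replicate 1. ABA4 (AT1G67080), needed to make neoxanthin, was lower instead, with 7.70, 7.88, 7.54, 7.82 and 7.90 in NILDOG1, against 8.61, 8.65 and 8.55 in NILDOG2 (-0.83 ± 0.12, adjusted p = 0.00324). ABA1, zeaxanthin epoxidase, differed by 0.47 without overlap (adjusted p = 0.0576). NCED6 and NCED9, the dioxygenases best known from developing seeds, differed by -0.07 and 0.25. None of the 4 CYP707A genes, whose products break ABA down, was called by limma or reached an unadjusted p under 0.05, and their differences lay between -0.16 and 0.14.

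The ABA receptors of the PYR/PYL family, which bind the hormone and then block PP2C phosphatases, were called in both directions. Of 10 measured, 3 were lower and 1 higher, where 2.13% of all genes were lower and 1.53% higher. PYL4 (AT2G38310) had 8.16, 8.04, 7.16, 8.32 and 8.34 in NILDOG1, against 9.01, 9.25 and 9.16 in NILDOG2 (-1.14 ± 0.23, adjusted p = 0.0211). PYR1 (AT4G17870), at the highest signal of the family, ran from 10.47 to 10.80 in NILDOG1, against 11.28 to 11.40 in NILDOG2 (-0.68 ± 0.12, adjusted p = 0.00948). PYL6 (AT2G40330) differed by -0.58 ± 0.14 (adjusted p = 0.0435). PYL7 (AT4G01026) went the other way, with 7.02, 6.98, 6.97, 7.00 and 6.50 in NILDOG1, against 5.68, 5.54 and 6.07 in NILDOG2 (1.13 ± 0.16, adjusted p = 0.00302), and it lies near GBF2 at the top of chromosome 4. The PYL7 call held whichever array was left out (highest adjusted p = 0.0302). Without NILDOG2 replicate 2 the genes PYL4 (0.126), PYR1 (0.0721) and PYL6 (0.236) were not called, and PYL4 was lost without NILDOG2 replicate 1 or 3 as well and PYL6 in 7 of the 8 fits.

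The clade A PP2C phosphatases, which restrain ABA signalling, had a median difference of 0.37, and 8 of the 9 were above 0. AHG1 (AT5G51760), the seed phosphatase that DOG1 binds, was the only member called. It had 10.18, 10.27, 10.73, 9.91 and 10.45 in NILDOG1, against 9.52, 9.50 and 9.53 in NILDOG2, a difference of 0.79 ± 0.17 (adjusted p = 0.0232) that was not called without NILDOG2 replicate 1, 2 or 3 (up to 0.12). AHG3, also bound by DOG1, differed by 0.44 without overlap (adjusted p = 0.224), and ABI1 by -0.66 (adjusted p = 0.0944). Of 11 SnRK2 kinases and ABA transcription factors, 0 were called by limma and 3 had an unadjusted p under 0.05, all higher in NILDOG1. At that threshold 8.48% of all genes were higher.

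Of the 14 genes of GA synthesis measured, 4 were called, all lower in NILDOG1 and all encoding enzymes of the late steps. With NILDOG1 replicates 4 and 5 only, 1 was called. GA20OX2 (AT5G51810), a GA 20-oxidase, which makes the precursors of active GAs, had 3.3, 3.29, 3.23, 3.74 and 3.29 in NILDOG1, against 5.69, 5.63 and 5.37 in NILDOG2. The NILDOG1 values were at the level of the lower quartile and the groups were far apart, with a difference of -2.19 ± 0.14 (adjusted p = 9.13e-06). GA20OX3 (AT5G07200) had 3.69, 3.90, 3.98, 4.82 and 3.84 in NILDOG1, against 5.99, 5.79 and 5.12 in NILDOG2 (-1.59 ± 0.25, adjusted p = 0.00538). GA20OX1 (AT4G25420) had 4.03, 3.84, 3.96, 4.59 and 3.65 in NILDOG1, against 4.83, 5.32 and 4.78 in NILDOG2, lower by a smaller amount (-0.97 ± 0.20, adjusted p = 0.0232). All 3 genes were highest within NILDOG1 in replicate 4.

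GA3OX2 (AT1G80340) encodes a GA 3-oxidase, which forms the active hormone. It had 3.75, 3.71, 3.46, 4.58 and 4.14 in NILDOG1, against 4.76, 5.07 and 5.04 in NILDOG2 (-1.03 ± 0.22, adjusted p = 0.0243), without overlap. GA3OX1, the other main enzyme of this step, had 4.15, 4.18, 4.78, 5.62 and 6.48 in NILDOG1, against 5.22, 6.19 and 5.51 in NILDOG2, and these values overlapped (-0.60 ± 0.46, adjusted p = 0.598). Its NILDOG1 replicates 4 and 5 were as high as NILDOG2 while replicates 1 to 3 were lower. The early genes GA1, GA2 and GA3 differed by -0.03, 0.09 and -0.34 and were not called. GA20OX2 and GA20OX3 remained called whichever array was left out, whereas GA20OX1 and GA3OX2 were each lost in 5 of the 8 such fits, with adjusted p-values of 0.155 and 0.142 without NILDOG2 replicate 2.

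Among the 7 GA 2-oxidases, which inactivate GAs, GA2OX3 (AT2G34555) was the only gene called, and it was lower in NILDOG1 as well. It had 4.31, 3.82, 3.97, 3.33 and 3.44 in NILDOG1, against 5.30, 5.45 and 5.84 in NILDOG2, a difference of -1.75 ± 0.22 (adjusted p = 0.0012) that held whichever array was left out. GA2OX6 differed by 0.54 (adjusted p = 0.176). The GA receptors GID1A (0.51, adjusted p = 0.22) and GID1C (0.57, adjusted p = 0.213) and the DELLA repressor RGL2 (-0.53, adjusted p = 0.0855) were not called. Of the 9 genes of GA perception, 0 were called by limma. At an unadjusted p under 0.05, 2 were higher and 2 lower, where 8.48% of all genes were higher and 7.81% lower. With NILDOG1 replicates 1 to 3 only, 2 genes of GA perception were called higher and 1 lower. In that fit 1 GA 2-oxidase was called higher and 1 lower.

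Cell wall loosening genes formed the list with the lowest median. Expansins loosen the contacts between wall polymers, XTH enzymes cut and rejoin xyloglucan, and mannanases degrade mannans of the endosperm wall. Of 18 genes measured, 7 were called and all were lower in NILDOG1, and 16 were below 0, with a median of -1.19 against 0.02 over all genes. XTH19 (AT4G30290) had 5.69, 5.36, 4.15, 7.04 and 5.10 in NILDOG1, against 8.56, 9.44 and 8.36 in NILDOG2. The groups did not overlap, although NILDOG1 replicate 4 was far above replicate 3, and the difference was -3.32 ± 0.49 (adjusted p = 0.00337). EXPA8 (AT2G40610) had 5.44, 5.81, 5.08, 6.26 and 6.31 in NILDOG1, against 7.79, 8.55 and 8.07 in NILDOG2 (-2.36 ± 0.27, adjusted p = 0.000942).

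XTH5 (AT5G13870) ran from 5.37 to 7.58 in NILDOG1, against 8.24 to 8.64 in NILDOG2, and differed by -2.22 ± 0.37, with an adjusted p of 0.0555 without NILDOG2 replicate 2. EXPA1 (AT1G69530) ran from 5.85 to 8.10 in NILDOG1, against 8.49 to 9.52 in NILDOG2 (-2.11 ± 0.42, adjusted p = 0.0185), and lost its call without NILDOG2 replicate 1 or 2, up to 0.132. EXPA9 (-1.68), XTH16 (-1.31) and EXPA3 (-1.30) were called too. EXPA2, an expansin of the germinating seed, had 5.16, 6.28, 5.83, 8.60 and 6.19 in NILDOG1, against 8.26, 9.61 and 8.39 in NILDOG2. These values overlapped through NILDOG1 replicate 4, and EXPA2 was not called (-2.34 ± 0.61, adjusted p = 0.0573). The mannanases MAN7 (-0.61), MAN6 (-0.26) and MAN5 (0.19) were not called. Of the 18 genes, 11 had their highest NILDOG1 value in replicate 4, 12 their lowest in replicate 3, and 13 their highest NILDOG2 value in replicate 2. Without NILDOG2 replicate 2 the number called fell to 2, with NILDOG1 replicates 1 to 3 only it was 11, and the median stayed between -1.43 and -0.93 over the fits without an array.

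A further 5 lists were chosen after the values had been seen, because their members stood among the called genes, so their counts are given as a description. Indole glucosinolates are defence compounds made from tryptophan. Of 19 genes of their synthesis, control and breakdown, 10 were called, all lower in NILDOG1, and the median was -0.85. PYK10 (AT3G09260), a beta-glucosidase of the endoplasmic reticulum, had 6.84, 7.53, 5.95, 8.95 and 7.99 in NILDOG1, against 9.58, 10.38 and 9.93 in NILDOG2 (-2.51 ± 0.51, adjusted p = 0.0191). CYP83B1 (AT4G31500), which oxidises indole-3-acetaldoxime, had 7.12, 7.50, 6.14, 9.19 and 8.37 in NILDOG1, against 9.70, 10.51 and 9.95 in NILDOG2 (-2.39 ± 0.52, adjusted p = 0.028). Upstream of it, CYP79B2 differed by -1.52, and the transcription factor MYB34, which activates the pathway, by -1.49. SOT16, the sulphotransferase of the last step, differed by -1.87 and SUR1, the C-S lyase, by -0.79. Within NILDOG1, replicate 4 was the highest array for 12 of the 19 genes. Without NILDOG2 replicate 2 the number called was 0, with a highest adjusted p of 0.171 for CYP83B1 and of 0.129 for PYK10.

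Tubulins are the subunits of microtubules. Of 11 measured, 6 were called, all lower, with a median of -0.89. TUB1 (AT1G75780) had 3.06, 3.24, 2.81, 4.10 and 3.63 in NILDOG1, against 4.59, 5.77 and 5.63 in NILDOG2 (-1.96 ± 0.31, adjusted p = 0.0047). TUA6 (-1.69), TUA4 (-1.68), TUA2 (-1.14), TUB5 (-1.0) and TUB7 (-0.89) were the others. NILDOG1 replicate 3 was the lowest of its line for 10 of the 11 genes and NILDOG2 replicate 2 the highest of its line for 10, and without NILDOG2 replicate 2 the number called was 3. Among 9 plasma membrane aquaporins, which conduct water, PIP1C (AT1G01620) was lower, with 4.46, 4.51, 3.74, 4.56 and 4.44 in NILDOG1, against 6.39, 6.93 and 6.37 in NILDOG2 (-2.22 ± 0.20, adjusted p = 0.000162), and its gene lies in the first dense window of chromosome 1. PIP2;5 was higher, by 0.64 (adjusted p = 0.0304), and was not called without NILDOG1 replicate 2.

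Of 17 flavonoid genes measured, 4 were called, all higher in NILDOG1, and the median was 0.83, with 13 above 0 and 4 below. With NILDOG1 replicates 1 to 3 only, 8 were called higher and 2 lower. TT4 (AT5G13930), chalcone synthase and the entry enzyme of the pathway, had 10.22, 9.34, 9.86, 11.78 and 11.71 in NILDOG1, against 7.38, 7.55 and 8.98 in NILDOG2 (2.61 ± 0.55, adjusted p = 0.0235). TT5 (AT3G55120), chalcone isomerase, had 7.21, 5.91, 6.99, 8.42 and 8.51 in NILDOG1, against 4.42, 4.30 and 5.16 in NILDOG2 (2.78 ± 0.49, adjusted p = 0.00919). In both genes NILDOG1 replicates 4 and 5 were above replicates 1 to 3, and NILDOG2 replicate 3 was above the other NILDOG2 arrays. F3H, flavanone 3-hydroxylase, differed by 1.22 and MYB12, an activator of flavonol genes, by 1.64. FLS1, flavonol synthase, had 6.84, 5.77, 6.40, 8.49 and 8.53 in NILDOG1, against 4.62, 4.72 and 5.89 in NILDOG2. These values overlapped, and FLS1 was not called (2.13 ± 0.58, adjusted p = 0.0717). DFR (-0.08), on the branch to anthocyanins and proanthocyanidins, was near the lower quartile, as were the seed coat genes BAN, TT2 and TT10, which were not called. Without NILDOG2 replicate 2, 0 of the 17 were called, with adjusted p-values of 0.146 for TT4 and 0.0701 for TT5, and the median over the fits without an array lay between 0.69 and 0.90.

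Of 12 genes of heat shock proteins and their activators, ATHSP22.0 and HSFA9 were called. HSFA9 (AT5G54070), a heat shock factor of maturing seeds, had 8.50, 8.47, 9.13, 8.68 and 8.01 in NILDOG1, against 7.84, 7.29 and 7.85 in NILDOG2 (0.90 ± 0.22, adjusted p = 0.0476). All 12 differences were above 0, with a median of 0.49. NILDOG1 replicate 3 was the highest of its line for 11 of the 12 and replicate 5 the lowest for 8, and in 6 of the 8 fits that left out an array 0 of the 12 were called.

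**Figure D3:**
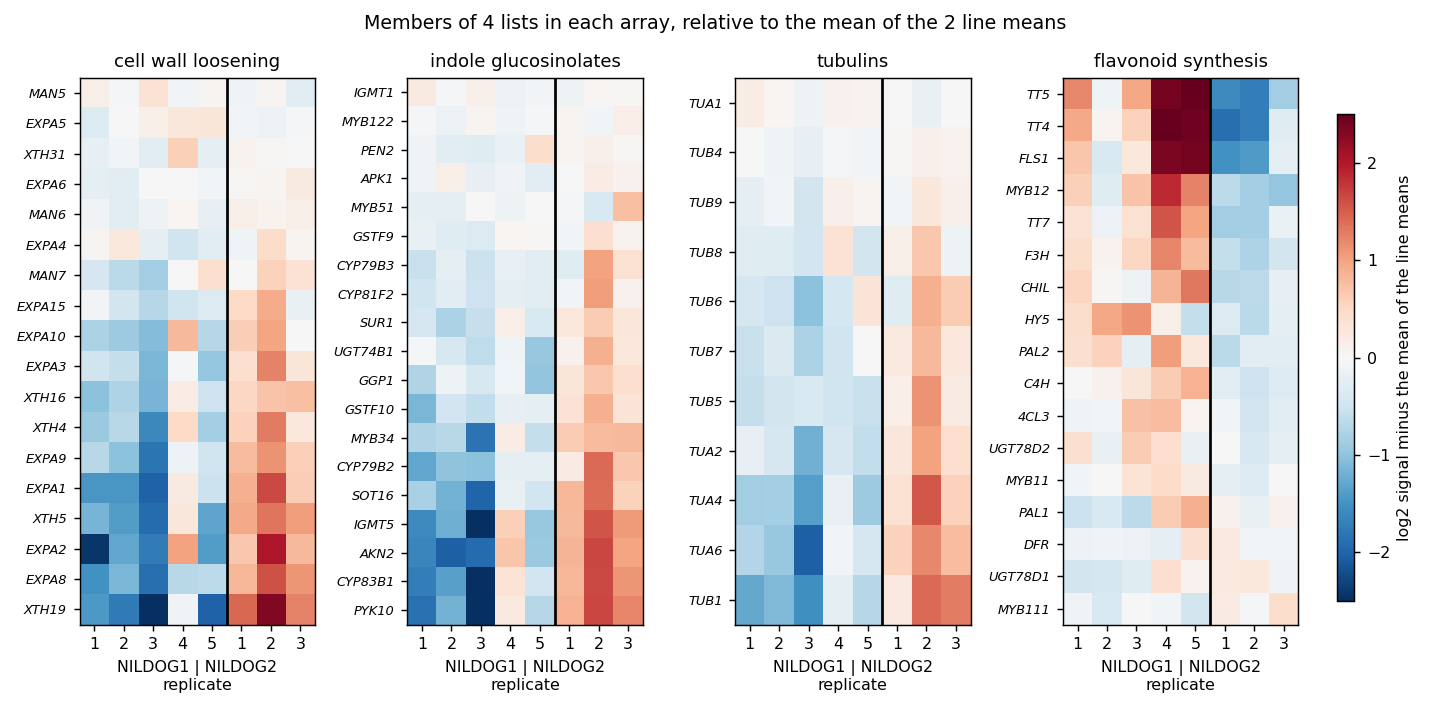
Log2 signal of the measured members of 4 lists (rows) in the 5 arrays of NILDOG1 (left of the line) and the 3 arrays of NILDOG2 (right), relative to the mean of the line means of each gene, with the colour scale ending at 2.5 in both directions. In NILDOG1, replicate 3 is lowest for 12 of 18 cell wall, 8 of 19 indole glucosinolate and 10 of 11 tubulin genes. In NILDOG2, replicate 2 is highest for 13, 16 and 10 of them in turn. In the flavonoid list, NILDOG1 replicates 4 and 5 are highest at TT5, TT4 and FLS1.

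Circadian clock genes were called in both directions. Of 13 measured, RVE2 and RVE8, MYB-like factors that peak in the morning in seedlings, were higher and PRR7, a repressor of morning genes, was lower. Over all genes, 1.53% were called higher and 2.13% lower. RVE2 (AT5G37260), also known as CIR1, had 7.10, 7.45, 7.07, 6.36 and 7.57 in NILDOG1, against 5.85, 5.65 and 6.1 in NILDOG2 (1.25 ± 0.24, adjusted p = 0.0133). RVE8 (AT3G09600) differed by 0.88 ± 0.21 (adjusted p = 0.0411), a call lost in 6 of the 8 fits without an array. PRR7 (AT5G02810) had 6.15, 5.77, 6.67, 6.16 and 6.02 in NILDOG1, against 7.48, 7.12 and 6.90 in NILDOG2 (-1.01 ± 0.19, adjusted p = 0.0142), and it lies in the dense window at the top of chromosome 5. The core genes CCA1 (0.08), LHY (0.18) and TOC1 (0.33) were not called. Without NILDOG2 replicate 1 none of the 3 was called, with an adjusted p of 0.0742 for PRR7, and without NILDOG2 replicate 2 the adjusted p was 0.0992 for RVE2 and 0.231 for RVE8.

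Of 25 genes of late embryogenesis abundant (LEA) proteins, 9 of storage proteins, 6 of oil body proteins and 14 of oil breakdown, 0 were called by limma. At an unadjusted p under 0.05, 7 LEA genes were higher and 2 storage protein genes lower, and none of the oil genes reached it. Over all genes, 8.48% were higher and 7.81% lower at that threshold. Of the LEA genes, 1 was called higher with the low filter, with centring or with quantile normalization, 2 with NILDOG1 replicates 1 to 3 only or the replicate block, and 3 with the prior trend or array weights. In the fits without an array, 0 to 2 LEA genes were called higher. Of the storage protein genes, 1 was called lower with the low filter, the prior trend, array weights or all 19 arrays. With NILDOG1 replicates 1 to 3 only, with the replicate block or without NILDOG1 replicate 5, 2 were called lower. The medians were 0.14 for LEA proteins, -0.23 for storage proteins, 0.04 for oil body proteins and -0.14 for oil breakdown. The largest single difference was that of SESA4, a 2S albumin gene, with 9.39, 10.39, 9.95, 10.13 and 10.97 in NILDOG1, against 11.20, 11.22 and 11.28 in NILDOG2, which separated the lines and missed the threshold (-1.07 ± 0.27, adjusted p = 0.0502).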

How the data were processed

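RNA from imbibed seeds was hybridised to ATH1 GeneChips, 1 array per sample, and groups came from the sample titles. The values used were the log2 signals that the authors deposited after RMA in R, named in the submitters' processing notes and the study's methods (background correction, quantile normalization and probe summary), 1 per gene for 21313 genes. The version and the probe mapping are not given in the sources used here. Quantile normalization gives the arrays of a series nearly the same distribution, so a shift of all genes cannot be seen. No counts lie behind the values, and the number of arrays limits the precision. Probe-level signals and after-ripened seeds were not analysed here, and 0 per-sample columns belonged to no sample.

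A linear model with 1 mean per line and no covariates was fitted to the 5 NILDOG1 and 3 NILDOG2 arrays in limma 3.58.1 (R 4.3.3; lmFit and eBayes with a constant prior, two-sided), with no filter and Benjamini-Hochberg adjustment over all 21313 genes. Genes with an adjusted p under 0.05 were called. Differences are NILDOG1 minus NILDOG2 on the log2 scale. The same steps were tested on simulated arrays of 21313 genes with 200 genes changed at each size for the comparison of NILDOG1 with NILDOG2. They recovered 71.5% of the genes changed by 1 on the log2 scale and 97.5% of those changed by 2, with 11 false calls at each size. The simulated noise was independent between genes and the same for both sizes. Shifts of many genes together in an array were therefore not simulated.

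Names and order along the chromosomes came from the RefSeq gene table of TAIR10.1, in which 21205 genes (99.5%) had their locus tag. Windows held 100 neighbouring genes, and those with 10 or more called genes were termed dense. The genes chosen by rule were the 12 largest rises and the 12 largest falls among called genes without overlap, the 3 largest in each direction outside chromosomes 1 and 5, DOG1, and up to 4 called members of each list. Other list members are given by their values. The D-up list came from the study's supplement, 1 further list is not reported here, and list genes absent from the table used were not analysed here. The comparison and the lists were chosen with earlier results of these data known. Alternatives were other thresholds, a filter on the lowest 30% of mean levels, centring or quantile normalization, a prior trend, array weights, all 19 arrays, subsets of NILDOG1 arrays, the replicate number as a block and leaving out each array. Counts of called list members in the last of these and in the NILDOG1 subsets were added after seeing the data. Tables were made with pandas 2.3.3 and numpy 2.4.6, and plots with matplotlib 3.10.9, all under Python 3.11.15.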

Additional observations from a re-analysis of the deposited data

Results flagged for a closer look

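In 4 genes a single NILDOG1 array stood apart from the other NILDOG1 arrays by Dixon's test at the 95% level, out of 48 genes examined, where about 1 in 20 (2.4 genes) would do so by chance. PYL4 (AT2G38310) was 7.16 in NILDOG1 replicate 3, against 8.04 to 8.34 in the other NILDOG1 arrays. PYL7 (AT4G01026) was 6.50 in NILDOG1 replicate 5, against 6.97 to 7.02 in the others. GA20OX2 (AT5G51810) was 3.74 in NILDOG1 replicate 4, against 3.23 to 3.3 in the others, and GA20OX3 (AT5G07200) was 4.82 in the same replicate, against 3.69 to 3.98 in the others. Each of these values still lay on the same side of all NILDOG2 values as the rest of NILDOG1.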

How the results depend on the processing

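The number of called genes was 781. A stricter adjusted p, under 0.01, left 280 and one under 1e-04 left 17, while 253 had an unadjusted p below 1e-04. The count was 1308 with array weights, 1987 with NILDOG1 replicates 1 to 3 only, 338 with NILDOG1 replicates 4 and 5 only, and 238 to 1023 without one array. Of the 781 genes, 760 were called with NILDOG1 replicates 1 to 3 and 272 with replicates 4 and 5. The share of called genes that were higher in NILDOG1 was 41.7%, against 55.1% with replicates 1 to 3 only. The low filter (823), centring (805), quantile normalization (788), the prior trend (788) and all 19 arrays (546) stayed within 1.5 times. With all 19 arrays, however, only 479 of the 781 genes remained called. That fit called 4 genes of cell wall loosening, 6 of indole glucosinolates and 3 of tubulins, while GA synthesis and flavonoid synthesis kept 4 each. With the replicate number as a block, 1877 genes were called, 54.3% of them higher, and 736 of the 781 were among them. NILDOG1 replicates 4 and 5 have no NILDOG2 array of their number, so the block differences equal those of replicates 1 to 3 only. Same-numbered arrays of the lines deviated together with correlations of -0.05, 0.06 and 0.06, and differently numbered ones with -0.26 to 0.22. With 3 numbers in common, these values cannot decide whether a number stands for a shared block. DOG1 differed by 1.29 with the block (adjusted p = 0.00655), by 0.92 with NILDOG1 replicates 4 and 5 only (adjusted p = 0.0632), and by 0.92 to 1.28 without one array. In counts added after seeing the data, NILDOG1 replicates 4 and 5 only gave 3 called genes of cell wall loosening, 2 of indole glucosinolates, 2 of tubulins and 1 of GA synthesis, all lower, and 8 of flavonoid synthesis, all higher. With NILDOG1 replicates 1 to 3 only, flavonoid synthesis had 8 called higher and 2 lower. The median of the D-up list kept its direction under each alternative run. Of the 48 genes chosen by rule, 25 remained called without each array in turn and 23 were lost at least once; none changed direction under any alternative.

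With 3 NILDOG2 arrays, each of them carries much of the contrast, and leaving out replicate 2 lost most calls. Levels near the lower quartile were not checked for detection, so folds of such genes are not exact. RMA values do not show probe-level variants of Cvi, and the origin of NILDOG1 replicates 4 and 5 is not given.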
